A study of Mus musculus with 3 samples.

Results

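The 37 genes described here cover cholesterol and fatty acid synthesis, its control by SREBP, and the sterol export programme of the liver X receptors. They were taken as a named list from the 50600 genes of the deposited tables. The rule applied no cutoff on a measured value, but the list was chosen with earlier results of these data known. All 37 were found by symbol. By role they are 7 genes of the mevalonate arm, 11 genes of the arm from squalene to cholesterol, 5 genes of SREBP control, 3 sterol transport genes, 5 genes of LXR and efflux, 2 genes of ester storage and 4 genes of fatty acid synthesis.

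The measurements came from 3 RNA libraries of mouse T cells, strain C57BL/6NJ, taken as primary cells and forming 1 group, with biological replicates numbered 2, 3 and 4. The labels name total RNA-seq, a poly(A) library protocol and a differentiation protocol for CD4+ T cells. The file headers add Th0, the word activated and 0 h, and no treatment, genotype, sex or age is given for any library. Each library has its own biosample, but all 3 carry the same donor identifier, so separate animals are not stated. All p-values therefore measure spread among these libraries alone, part of which may be technical. Replicate 2 differed from the other libraries in sex-linked genes, with values given below, so it did not come from the same animal as they did.

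Cells build cholesterol from acetyl-CoA through mevalonate and squalene. When sterol in the endoplasmic reticulum is low, SCAP escorts the SREBP precursors to the Golgi, where cleavage frees a factor that activates the genes of synthesis and uptake, and INSIG proteins hold the complex back when sterol is plentiful. Liver X receptors (LXR) sense oxysterols and activate genes of export, so the arms oppose each other. In T cells this network is known to be switched toward synthesis when activated cells grow and divide.

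Counts per library were 47432940 in replicate 2, 59698913 in replicate 3 and 28340521 in replicate 4. All 6 T cell markers were detected, which here means 1 TPM or more in every library, with Cd4 at 1044 ± 24.6 TPM (SD, n = 3). TPM is a level per length of gene, scaled so that every library has the same total. Of 6 activation markers all were detected, from Mki67 at 2.01 ± 0.284 TPM and Il2ra at 3.93 ± 1.39 TPM to Tfrc at 26.1 ± 0.896, Cd69 at 46.1 ± 5.87, Nr4a1 at 101 ± 3.56 and Myc at 149 ± 2.82 TPM. Markers of other cells, whose RNA would be counted together with that of T cells, were detected for 5 of 5 B cell genes (summed 34.1 to 48.6 TPM), 2 of 7 macrophage genes (15.1 to 16.0 TPM, with Marco at 0 counts), 2 of 4 NK cell genes, 0 of 5 dendritic cell genes and 0 of 4 stromal and adipocyte genes. Replicate 2 stood apart in sex-linked genes, with Xist at 151 TPM against 0.221 and 0.399 TPM in replicates 3 and 4, and Ddx3y at 0.248 TPM against 80.0 and 72.3 TPM. In bulk RNA, fewer cells of a type and less RNA per cell cannot be told apart.

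The 250 bases before the start site are printed for 4 genes with a window in the RefSeq promoter table (GRCm38.p6). Among genes with a window, they had the smallest p in edgeR's goodness of fit, given further on. Sqle, Scd1 and Fdft1 had a smaller p than Cyp51 but no window. In that test Hmgcs1 had an unadjusted p of 0.0776 and Cyp51 of 0.118, so neither was shown to differ among the libraries. Of the 4 genes printed, Abca1 encodes a transporter that exports cholesterol, and the other 3 encode synthesis enzymes. The windows are chr4:53159896-53160145 on the minus strand for Abca1, chr8:122443423-122443672 on the minus strand for Mvd, chr13:119690101-119690350 on the plus strand for Hmgcs1 and chr5:4104698-4104947 on the minus strand for Cyp51. Each runs 5′ to 3′ on the strand of its gene. Capitals mark the sterol response element core TCACNCCAC, the NF-Y box CCAAT, the E-box CACGTG and a relaxed DR4 element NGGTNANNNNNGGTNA, on either strand.
Abca1: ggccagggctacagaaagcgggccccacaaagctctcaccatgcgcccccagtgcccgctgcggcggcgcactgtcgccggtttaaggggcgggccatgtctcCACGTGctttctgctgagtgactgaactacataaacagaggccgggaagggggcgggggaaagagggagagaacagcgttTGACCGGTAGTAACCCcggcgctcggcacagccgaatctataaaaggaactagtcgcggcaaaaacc
Mvd: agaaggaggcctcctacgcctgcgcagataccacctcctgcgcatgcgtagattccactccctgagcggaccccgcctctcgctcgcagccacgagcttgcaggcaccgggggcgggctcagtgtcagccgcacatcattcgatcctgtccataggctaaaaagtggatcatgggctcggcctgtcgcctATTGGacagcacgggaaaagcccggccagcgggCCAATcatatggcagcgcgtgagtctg
Hmgcs1: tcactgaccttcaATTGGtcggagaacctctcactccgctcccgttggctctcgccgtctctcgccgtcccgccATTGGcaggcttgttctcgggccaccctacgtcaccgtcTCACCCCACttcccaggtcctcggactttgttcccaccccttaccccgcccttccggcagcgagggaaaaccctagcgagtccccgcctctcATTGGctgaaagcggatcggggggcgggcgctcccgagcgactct
Cyp51: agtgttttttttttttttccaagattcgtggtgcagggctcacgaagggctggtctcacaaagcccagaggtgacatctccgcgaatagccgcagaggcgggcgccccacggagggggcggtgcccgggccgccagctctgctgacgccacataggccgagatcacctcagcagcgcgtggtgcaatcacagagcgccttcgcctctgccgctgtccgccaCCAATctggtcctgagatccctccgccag

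In these 4 windows no match overlaps another, and positions count from the first base of a match to the start site. Hmgcs1 holds TCACCCCAC from 137 bases before its start, with ATTGG, the NF-Y box read on the other strand, at 237, 176 and 45 bases before it. Mvd has NF-Y boxes 60 and 27 bases before its start, and Cyp51 has 1 at 29 bases. Abca1 has no NF-Y box or sterol response core in this stretch, and carries CACGTG at 147 bases before the start. At 67 bases it carries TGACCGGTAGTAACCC, a match to the relaxed DR4 element. That relaxed pattern was chosen after this window had been read, so the match followed from the choice. A DR4 element, a direct repeat of a hexamer with a spacer, is the type of site that LXR binds together with its RXR partner.

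Across the 28 genes with a RefSeq window of 300 bases, which adds 50 bases after the start, the GC box and CCAAT were the most widespread of the letters searched. NF-Y is known to bind next to SREBP at sterol genes. CCAAT or its reverse complement was in 22 of 28 genes, against 41.1% of the 27025 genes in the table. The GC box GGGCGG, bound by Sp1, was in 23 of 28 against 38.2%. CACGTG was in 6 of 28, in Hsd17b7, Sc5d, Dhcr7, Scap, Insig1 and Abca1, against 8.09%. TCACNCCAC was in 1 of 28, Hmgcs1, against 1.44%, and the strict LXR DR4 element was in 0 of 28 against 0.0148%. The relaxed DR4 element was in Srebf1, Abca1 and Fasn, and in 0.818% of the genes in the table. It was chosen after the Abca1 window had been read, so its match in Abca1 was fixed by that choice. The share over all genes is therefore no fair comparison for it. Such matches describe letters and are neither sites nor causes. Sqle, Fdft1, Fdps, Stard4, Npc1, Abcg1, Soat2, Scd1 and Scd2 are named only.

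Nearly the whole network was transcribed in these T cells, and the 7 genes over 100 TPM were Npc2, Srebf2, Nr1h2, Fasn, Srebf1, Abcg1 and Mylip, with every sterol synthesis enzyme lower. That list holds for summed exons as gene length. By the longest transcript, Abcg1 at 60.9 and Mylip at 77.9 TPM left it, and Scap at 121 TPM joined it. Of the 37 genes, 36 were detected, against 46.1% of 21764 protein-coding genes, and the exception was Soat2. The 37 were chosen with earlier results known, so the shares are set side by side as description only. A detected protein-coding gene had a median level of 33.4 TPM, and 12 of the 37 genes lay above it. Together the 37 genes summed to 2133 ± 28.9 TPM (SD, n = 3). By library median, the LXR and efflux genes stood at 107 ± 8.17 TPM, SREBP control at 94.4 ± 2.77 TPM, fatty acid synthesis at 27.1 ± 2.62 TPM, transport at 26.0 ± 0.722 TPM and the 18 sterol synthesis enzymes at 19.4 ± 1.21 TPM, beside 33.3 ± 0.824 TPM for all detected protein-coding genes. LXR and efflux lay above SREBP control in every library, but in replicate 4 only by 97.7 against 97.6 TPM, and with the longest transcript as gene length the order turned, with 60.9 ± 5.21 TPM against 119 ± 4.31 TPM. The ranges of transport and fatty acid synthesis overlapped. The SD of a role median is spread among libraries and not among its genes. With summed exons as gene length, the medians of LXR and efflux, SREBP control and transport were the values of Mylip, Scap and Npc1. The fatty acid median fell between Acaca at 6.22 TPM and Scd2 at 48.0 TPM, where no gene of that role lay.

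**Figure D1:**
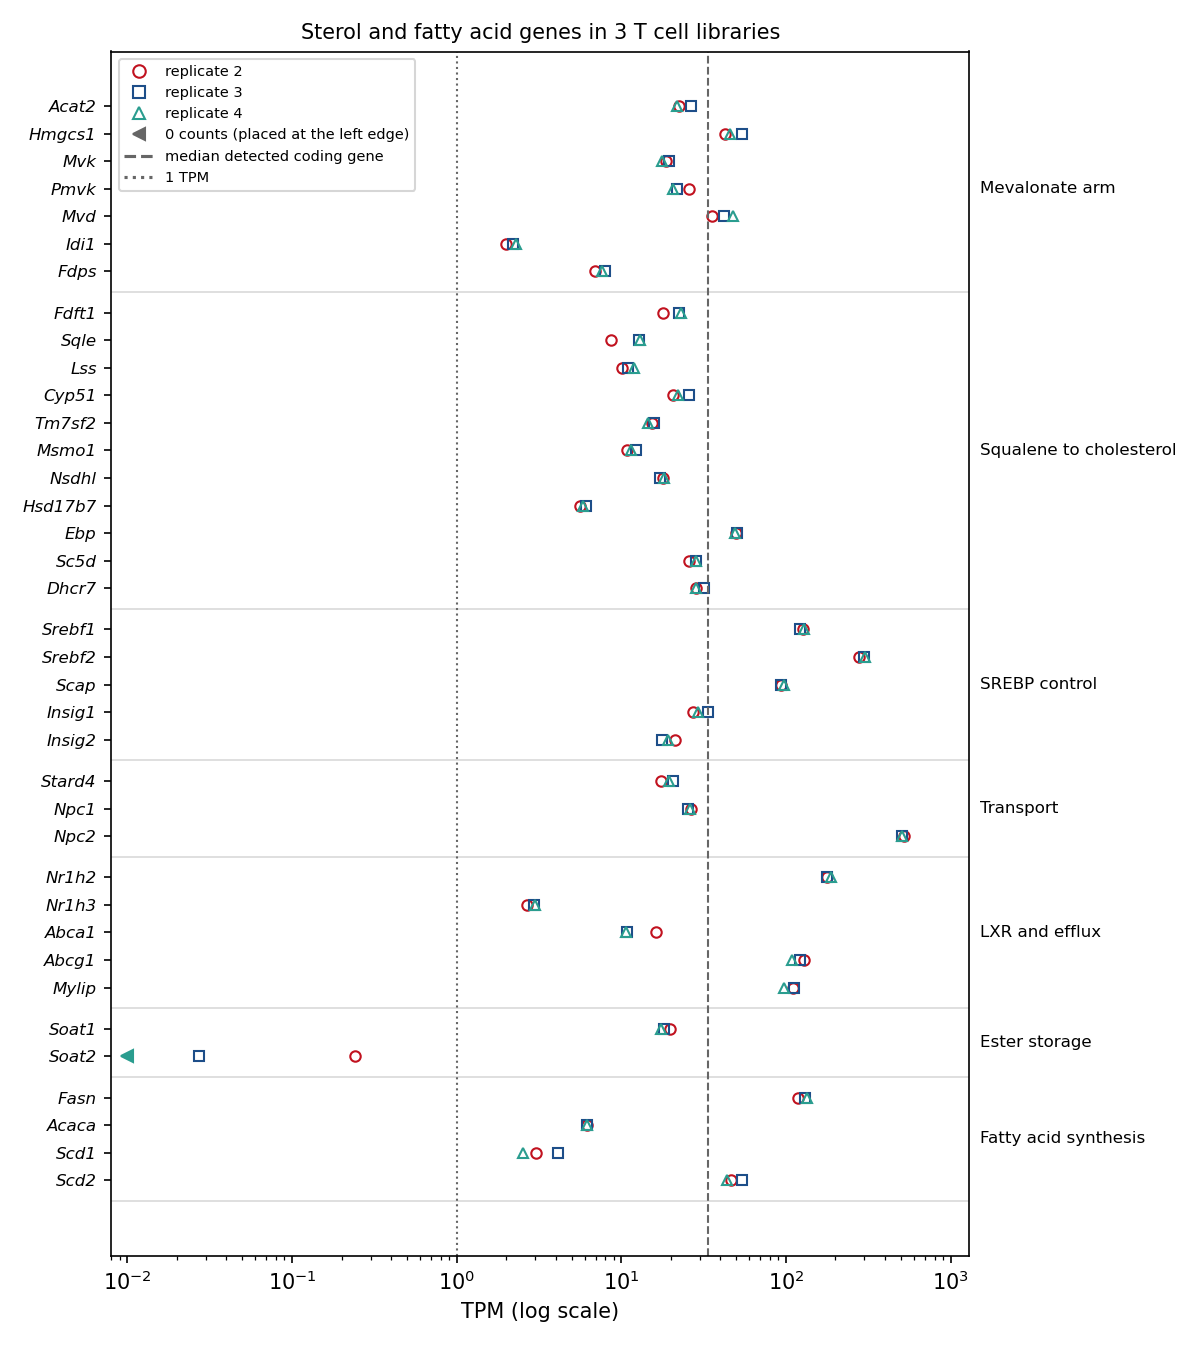
Level of each of the 37 genes in TPM on a log axis, grouped by role, with 1 symbol per library. The dashed line is the median detected protein-coding gene at 33.4 TPM, the dotted line is 1 TPM, and the filled triangle at the left edge is the library with 0 counts of Soat2. Most synthesis enzymes lie left of the dashed line, and Npc2, Srebf2 and Nr1h2 lie farthest right.

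In the mevalonate arm the levels fell in the range from 2.16 TPM for Idi1 to 47.4 TPM for Hmgcs1. Hmgcs1, the synthase that makes HMG-CoA (mm10 chromosome 13, 119690462 to 119708086, plus strand), was at 42.4, 54.2 and 45.5 TPM in replicates 2, 3 and 4. Mvd, the decarboxylase that yields isopentenyl diphosphate (chromosome 8, 122433601 to 122443422, minus strand), was at 35.6, 42.3 and 47.9 TPM. These were the 2 genes of the arm above the median coding gene, and their ranges overlapped.

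Acat2, a thiolase that joins acetyl-CoA units, was at 23.6 ± 2.63 TPM. The kinases Pmvk and Mvk, which phosphorylate mevalonate in turn, were at 22.7 ± 2.74 and 18.6 ± 0.955 TPM. Farnesyl diphosphate synthase, Fdps, was at 7.50 ± 0.546 TPM and the isomerase gene Idi1 at 2.16 ± 0.154 TPM. The low levels of Fdps and Idi1 are uncertain, since the headers set no option to count reads that align to several places. Of the 50-base stretches of the longest coding transcript, 86.4% for Fdps, 45.9% for Acat2 and 21.3% for Idi1 also occur in other genes, so these 3 may be undercounted. For Fdps, 26.7% of the exon bases also overlap Gm43738 on the same strand. With the longest transcript as gene length, Fdps was at 16.6 ± 1.21 TPM.

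The arm from squalene to cholesterol was mostly low, with 10 of 11 genes below the median coding gene. Ebp, a sterol isomerase, was the exception at 49.9, 50.3 and 49.0 TPM, a spread of 1.39% of its mean. Dhcr7, the reductase of a last step to cholesterol, followed at 29.6 ± 2.02 TPM, the desaturase gene Sc5d at 27.6 ± 1.57 TPM and the lanosterol demethylase gene Cyp51 at 20.5, 25.9 and 22.1 TPM. Fdft1, the squalene synthase that commits carbon to sterols, was at 17.8, 22.3 and 22.9 TPM. Sqle, squalene epoxidase, a rate-limiting step (chromosome 15, 59315077 to 59331192, plus strand), was at 8.67, 12.9 and 13.0 TPM.

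The remaining 5 enzymes of that arm lay between 5.83 TPM for Hsd17b7, a sterol ketone reductase, and 17.8 ± 0.447 TPM for Nsdhl, which removes carbon groups from the ring. Lss, which closes the ring to lanosterol, was at 11.0 ± 0.858 TPM, the methyl oxidase gene Msmo1 at 11.5 ± 0.752 TPM and the sterol reductase gene Tm7sf2 at 15.2 ± 0.608 TPM. Gene length matters here. With the longest transcript as length, Msmo1 was at 25.2, Tm7sf2 at 25.8, Lss at 18.5, Dhcr7 at 44.5 and Fdft1 at 11.8 TPM. Those lengths came from GENCODE M21 and the counts from M13 exons, and the Fdft1 transcript of 3698 bases exceeds its 2860 exon bases. The whole scale also shifts. Mylip, with 3065 against 3062 bases, went from 107 to 77.9 TPM. Values by the 2 lengths are therefore not to be compared directly. In addition, 15.3% of the exon bases of Tm7sf2 overlap Vps51 on the same strand, and 10.9% of the stretches of Fdft1 occur in a further gene.

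Of the SREBP control genes, Srebf2, Srebf1 and Scap lay above every sterol synthesis enzyme in all libraries. Srebf2, whose product mainly drives cholesterol genes (chromosome 15, 82147266 to 82205376, plus strand), was at 277, 296 and 304 TPM, higher than 95.1% of detected coding genes. Srebf1, whose product mainly drives fatty acid genes, was at 127, 121 and 129.6 TPM, so that the 2 did not overlap. Scap, the escort, was at 92.7, 93.0 and 97.6 TPM. The retention genes were lower, with Insig1, itself an SREBP target, at 27.3, 33.8 and 29.4 TPM and Insig2 at 21.1, 17.7 and 19.2 TPM.

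The transport genes were led by Npc2, the soluble lysosomal protein that hands cholesterol to the membrane protein NPC1. Npc2 (chromosome 12, 84754560 to 84773112, minus strand) was the highest of the 37 genes in every library, at 518, 507 and 506 TPM, above 97.7% of detected coding genes. Npc1 was at 26.7, 25.3 and 26.0 TPM. Stard4, a cytosolic sterol carrier and SREBP target, was at 17.5, 20.5 and 19.6 TPM.

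Among the LXR genes the β receptor carried nearly all of the transcript. Nr1h2, which encodes LXRβ (chromosome 7, 44549616 to 44553951, minus strand), was at 178, 177 and 188 TPM, and Nr1h3, which encodes LXRα, at 2.69, 2.94 and 2.99 TPM. Abcg1, an LXR target that moves cholesterol to lipoprotein acceptors, was at 129, 122 and 109 TPM. Mylip, an LXR target encoding a ubiquitin ligase that limits lipoprotein uptake, was at 111, 112 and 97.7 TPM. Abca1, the LXR target that loads cholesterol on lipid-poor apolipoprotein (chromosome 4, 53030787 to 53159895, minus strand), was at 16.3, 10.8 and 10.7 TPM, with replicate 2 above the others. With the longest transcript as length, Abcg1 stood at 60.9 ± 5.21 TPM, still above Abca1 at 9.24 ± 2.38 TPM.

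Ester storage rested on Soat1, the sterol acyltransferase of most tissues, at 19.8, 18.1 and 17.4 TPM. Soat2, the acyltransferase of liver and intestine, had 7, 1 and 0 counts. Its level in replicate 2 was 0.240 TPM, with a 95% exact Poisson interval from 0.0964 to 0.494 TPM, and 3 counts over all libraries would amount to 0.0358 TPM. Counting intervals here cover counting error only.

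Of the fatty acid genes, Fasn, the fatty acid synthase, was at 118, 131 and 134 TPM, a range that overlapped those of Srebf1 and Abcg1. Scd2, a desaturase of fatty acids, was at 46.5, 53.8 and 43.7 TPM, and its liver-rich paralog Scd1 at 3.03, 4.15 and 2.54 TPM. Acaca, the carboxylase that supplies malonyl-CoA to FASN, was at 6.23, 6.23 and 6.21 TPM. Acaca may be undercounted, since 52.6% of its stretches also occur in Gm5182, while 4.66% of those of Scd1 and 4.01% of those of Scd2 occur in other Scd genes.

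Paralogs and partners were compared within each library in 8 pairs, as differences of log2(TPM + 0.1). Nr1h2 exceeded Nr1h3 by 5.93 ± 0.06 (SD, n = 3). Pooled over libraries and corrected for length, the counts gave a ratio of 62.8, with an exact binomial 95% interval of 55.7 to 71.1. Abcg1 exceeded Abca1 by 3.27 ± 0.26, a ratio of 9.61 (9.32 to 9.92), and Srebf2 exceeded Srebf1 by 1.22 ± 0.08, a ratio of 2.34 (2.30 to 2.37). The binomial intervals of all pairs cover counting error of the pooled reads and not the spread among libraries. By library, Abcg1 minus Abca1 was 2.98, 3.49 and 3.34 in replicates 2, 3 and 4. Insig1 exceeded Insig2 by 0.37, 0.93 and 0.62 in replicates 2, 3 and 4, the smallest gap of the 8.

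Scd2 exceeded Scd1 by 3.87 ± 0.19, a ratio of 14.4 (13.2 to 15.6). Soat1 exceeded Soat2 by 6.83 ± 0.84, a value that depends on the pseudocount of 0.1, and the ratio of pooled counts was 194 (98.6 to 450.3). Npc1 minus Npc2 was -4.29 ± 0.03 and Acaca minus Fasn -4.33 ± 0.10, the latter subject to the shared stretches of Acaca. With the longest transcript as gene length these differences were -3.24 and -3.62. By that length the gap was 0.80 for Srebf2 over Srebf1, 2.73 for Abcg1 over Abca1 and 6.31 for Nr1h2 over Nr1h3. It was 0.47 for Insig1 over Insig2, 3.85 for Scd2 over Scd1 and 6.73 for Soat1 over Soat2. The ratios above hold for summed exons as length. Every pair kept its sign in 3 of 3 libraries. Signs were tested by exact permutation, flipping the sign of each library's difference, with 2 sides. Each pair gave p = 0.25 in this exact test, the floor for 3 libraries, and 0.25 again after Benjamini-Hochberg adjustment over the 8 pairs, so no contrast could pass 0.05.

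**Figure D2:**
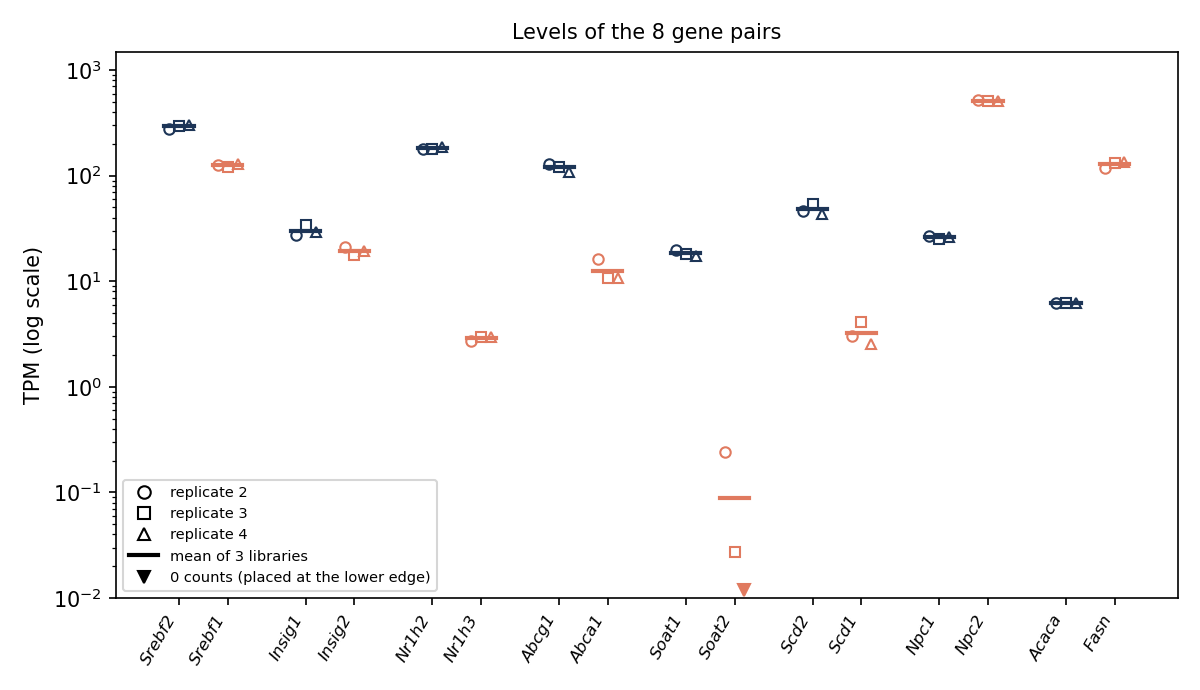
Levels of the 8 gene pairs in TPM on a log axis, the first gene of each pair in dark blue and the second in orange, with 1 symbol per library and a bar at the mean of the 3 libraries. The triangle at the lower edge is the library with 0 counts of Soat2. No pair overlaps, and the gap is widest for Soat1 and Soat2.

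None of the 18 sterol synthesis enzymes passed edgeR's test of variation among libraries given below, 2 of them (Sqle and Mvd) were at an unadjusted p under 0.05, and most had their lowest value in replicate 2. On the log2 CPM scale (log2 of counts scaled to library size with TMM factors), 14 of the 18 enzymes were lowest in replicate 2, or 77.8%, against 33.6% of all 13498 genes tested. The 14 include near ties, with Ebp at 4.99, 5.02 and 5.01 log2 CPM in replicates 2, 3 and 4, and Acat2 at 3.98, 4.24 and 3.98. By TPM both of these genes were lowest in replicate 4. The median difference of the 18 enzymes was 0.18 for replicate 3 minus 2, 0.15 for replicate 4 minus 2 and -0.02 for replicate 4 minus 3, while the median over all genes tested was 0.00 for each. Sqle had the widest gap of the enzymes, at 3.73, 4.32 and 4.36 log2 CPM in replicates 2, 3 and 4. Next were Mvd, at 4.19, 4.45 and 4.67, and Fdft1, which was higher by 0.35 in replicate 3 and by 0.41 in replicate 4 than in replicate 2.

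The 4 enzymes that did not have replicate 2 lowest in log2 CPM were Pmvk, Mvk, Tm7sf2 and Nsdhl. Pmvk ran the other way, with replicates 3 and 4 at 0.22 and 0.27 below replicate 2, and the log2 range of Mvk, Tm7sf2 and Nsdhl was at most 0.12. Of the SREBP targets outside the enzymes, Insig1 was higher by 0.33 in replicate 3 and 0.16 in replicate 4 than in replicate 2, and Stard4 by 0.25 and 0.21. Insig2 was lower in both. Fasn was higher by 0.17 and 0.23, whereas Scd1 was 0.47 higher in replicate 3 and 0.20 lower in replicate 4. Scd2 differed by 0.23 in replicate 3 and -0.04 in replicate 4 from replicate 2, and Acaca by 0.02 and 0.05.

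**Figure D3:**
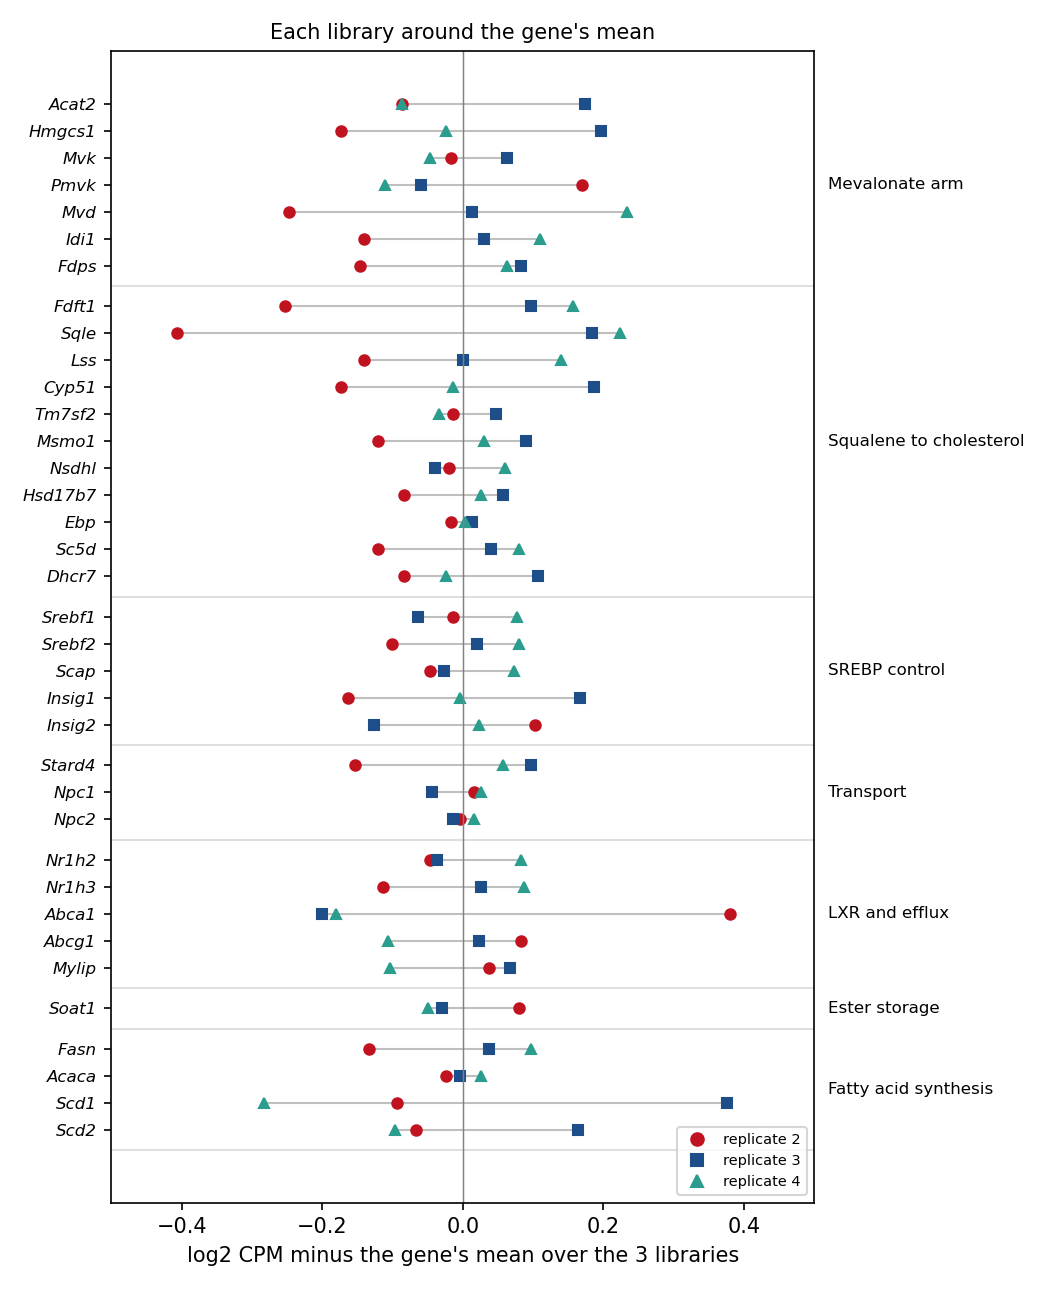
Each library's log2 CPM minus the mean of the gene over the 3 libraries, for the 36 genes tested, grouped by role. The circles of replicate 2 lie left of 0 for most enzymes of the mevalonate and squalene arms and at the far right for Abca1.

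Abca1 went the opposite way and was the 1 gene of the network that varied beyond the spread expected at its abundance. It stood at 5.54 log2 CPM in replicate 2 and at 4.96 and 4.98 in replicates 3 and 4, from 2226, 1856 and 880 counts. In edgeR, a negative binomial model with an intercept alone was tested for goodness of fit, which gave p = 0.000223 and an adjusted p of 0.0424 over all genes tested for Abca1. By this test 1 of 36 genes was called, against 0.533% of all genes (72 of 13498). At an unadjusted p under 0.05, 3 of 36 passed, against 4.10% of all genes. They were Abca1, Sqle and Mvd. In edgeR's test Sqle had an adjusted p of 0.230 and Mvd an adjusted p of 1.000. The median coefficient of variation was 6.96% over the 36 detected genes and 5.46% over detected coding genes.

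The call of Abca1 was narrow. It was lost when any of the 3 libraries was left out, with an adjusted p of 1.000 without replicate 2, 0.853 without replicate 3 and 0.424 without replicate 4, and under 3 of the other settings tried. Summed macrophage markers were 15.1, 16.0 and 16.0 TPM in replicates 2, 3 and 4, and summed B cell markers 43.6, 48.6 and 34.1 TPM, and their part in the result was not tested. Of the macrophage sum, Cd68 alone gave 13.4, 13.0 and 13.6 TPM. The sex-linked genes given above separate the same library, and the part of that difference in the levels of Abca1 and of the enzymes was not tested. The other LXR target transporter, Abcg1, differed by -0.06 and -0.19 in replicates 3 and 4 from replicate 2, and Mylip by 0.03 and -0.14, and neither passed edgeR's test (adjusted p = 1.000 for each).

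**Figure D4:**
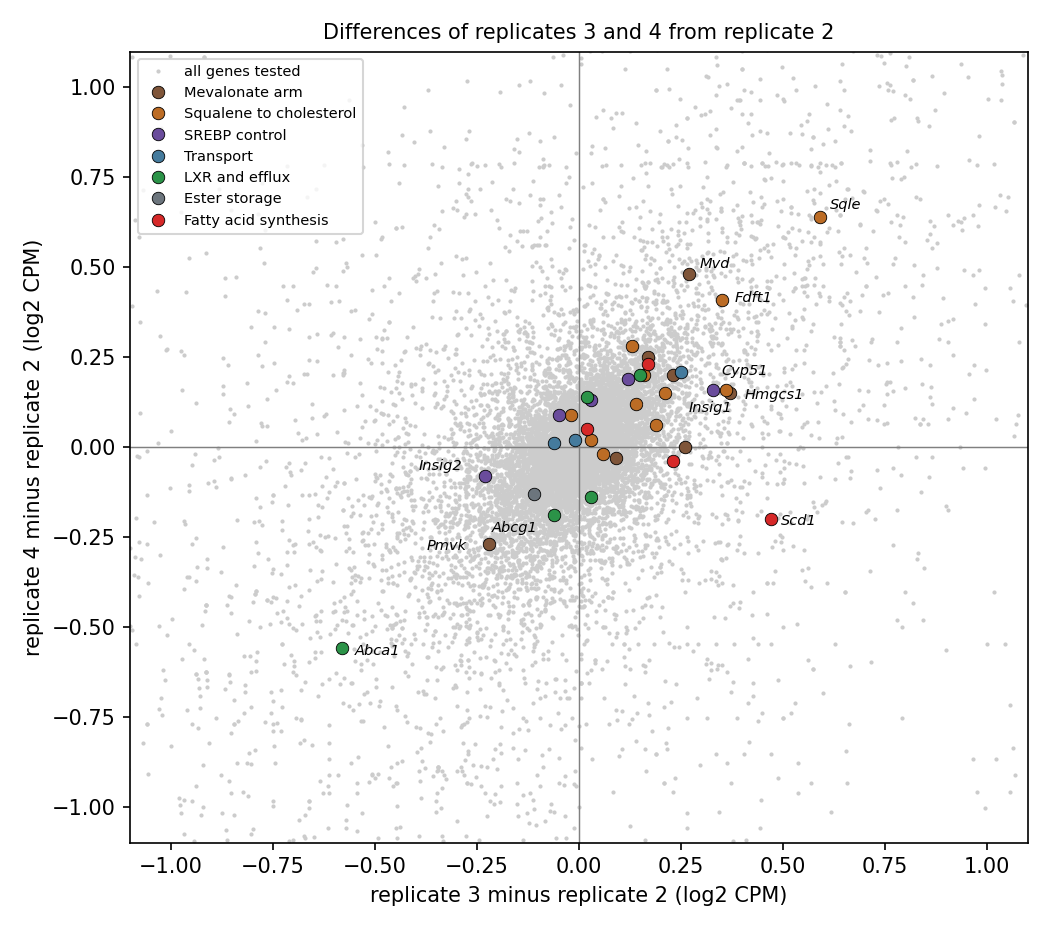
Difference of replicate 3 from replicate 2 (horizontal) and of replicate 4 from replicate 2 (vertical) in log2 CPM, for the 36 genes in colour by role and all genes tested in grey, with genes beyond the axes not drawn. Sqle, Mvd and Fdft1 lie to the upper right and Abca1 to the lower left, and both axes share replicate 2, so the differences they plot are not independent.

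Genes of the same pathways outside the 37 were taken from 6 lists of 71 symbols, of which 70 were matched. Of these, 56 were detected and 60 tested, and edgeR's goodness of fit called 0 of them, with 1 at an unadjusted p under 0.05. All 10 further genes of mevalonate and sterol synthesis were detected, with the electron donors Cyb5a at 129 ± 5.27 TPM and Por at 94.8 ± 3.80 TPM, and Ggps1, which makes the prenyl donor for proteins, at 63.3 ± 4.23 TPM. In SREBP processing and regulation 8 of 9 were detected, with the Golgi protease gene Mbtps1 at 87.1 ± 3.55 TPM and Syvn1 at 80.6 ± 1.83 TPM.

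In fatty acid synthesis 15 of 20 were detected. Acly, the lyase that supplies cytosolic acetyl-CoA to both pathways, was at 243 ± 5.23 TPM, the elongase gene Elovl5 at 171 ± 10.1 TPM and Mlx, the partner of carbohydrate-sensing factors, at 129 ± 7.69 TPM, while Thrsp had 0 counts. Of the list of LXR partners, targets and related transporters 8 of 10 were detected. The lipid transporter gene Abca7, not taken here as an LXR target, was at 270.2 ± 14.7 TPM. The corepressor gene Ncor1 was at 183 ± 6.66 TPM and Rxrb, which encodes an RXR that pairs with LXR, at 147 ± 3.28 TPM. Rxrg, a further RXR gene, had 0 counts.

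Uptake, transport and ester hydrolysis had 14 of 17 genes detected. Gramd1a, which moves cholesterol from the plasma membrane to the endoplasmic reticulum, was at 1048 ± 50.3 TPM, above every one of the 37 genes. Lipa, the lysosomal lipase that frees cholesterol for NPC2, was at 178 ± 6.34 TPM and the sterol exchanger gene Osbp at 93.2 ± 2.40 TPM. Of 4 genes that make or break down oxysterols, the ligands of LXR, 1 was detected, Hsd3b7 at 3.31 ± 0.724 TPM. Cyp27a1 was at 0.293 ± 0.178 TPM, and Ch25h and Cyp7b1 had 0 counts in all libraries, where 3 pooled counts would be 0.0588 TPM for Ch25h and 0.0367 TPM for Cyp7b1.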

How the data were processed

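The authors deposited raw counts of read pairs per gene for each of the 3 libraries. Per the file headers, featureCounts 1.4.6-p4 counted pairs over GENCODE M13 exons on mm10, with both ends aligned and reverse strand counting. Multi-mapping reads had no option set, so near-identical genes are undercounted. The version of the aligner is not given in the sources used here. Per the file headers, length is the sum of a gene's exons, from which TPM were computed here. Such TPM fall where annotated exons are not in the main transcript.

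Symbols matched 50376 of 50600 genes. Levels are described with the mean and SD of 3 libraries. Variation was tested in edgeR 4.0.16 (R 4.3.3) by goodness of fit of an intercept-only model (TMM factors, trend from estimateDisp) over genes whose counts averaged at least 10, at a Benjamini-Hochberg adjusted p of 0.05. The common biological coefficient of variation was 9.24%. The script was tested on simulated data. Log2 CPM used a prior count of 2. Pairs were tested by exact sign-flip permutation. Motifs were exact matches on both strands of RefSeq promoter windows, and stretches shared between genes came from GENCODE M21 transcripts.

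The genes, lists and pairs were chosen with earlier results of these data known. All 37 genes are named, and of other pathway genes the 3 highest per list and those with 0 counts, apart from genes that are not reported here. Alternatives were other thresholds, scalings, count minimums, dispersions, pseudocounts and totals, and each library left out. The longest transcript length and a bin spline dispersion trend were added after seeing the data. Transcript lengths came from GENCODE M21, so a transcript can be longer than the M13 exons counted, as for Abcg1 (5832 against 4066 bases).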

Additional observations from a re-analysis of the deposited data

How the results depend on the processing

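Detection of the 37 genes was 36 at 0.5 TPM and 33 at 5 TPM. The call count of 1 fell to 0 with no count filter, with a mean count of 50 or more and under a common dispersion (edgeR adjusted p for Abca1 of 0.136, 0.0515 and 0.0841), with 3 genes at an unadjusted p under 0.05 in each. It was between 0 and 0 when a replicate was left out, with 2 or 3 genes at an unadjusted p under 0.05. It stayed at 1 with RLE, upper quartile or no scaling factors and with the bin spline trend (adjusted p for Abca1 from 0.0316 to 0.0430). Over all genes the call count of 72 was 35, 39 and 46 when replicate 2, 3 or 4 was left out, and 312 with 1 dispersion for all genes. With TPM over protein-coding genes alone, library medians were 23.4 for the mevalonate arm, 19.2 for the squalene arm, 21.0 for the 18 enzymes, 102 for SREBP control, 28.1 for transport, 116 for LXR and efflux and 10 for storage. Without genes under 200 bases they were 18.4 for the squalene arm, 97.7 for SREBP control and 26.9 for transport. Longest transcript length gave 19.4 for the squalene arm, 119 for SREBP control, 38.9 for transport, 60.9 for LXR and efflux, 7.88 for storage and 21.5 for fatty acid synthesis, so SREBP control then lay above LXR and efflux. Median log2 differences that changed sign were near 0, replicate 4 minus 3 in the squalene arm (0.01 with upper quartile scaling, from -0.01), and with library size alone replicate 4 minus 2 in transport (-0.02, from 0.02) and fatty acid synthesis (-0.03, from 0.01). Between 12 and 14 of the 18 enzymes were lowest in replicate 2 under the scalings and filters tried, against 27.5% to 37.4% of all genes. No paired contrast changed sign. Soat2 with 8 counts and Nr1h3 with 272 are limited by depth. No paired analysis was possible because there was 1 group.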
